A study of Mus musculus with 6 samples.

Results

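Endothelial cells of the old mouse hippocampus were examined 24 h after inhaled sevoflurane or air. The cells were chosen by a marker gate in 6 droplet single-cell RNA libraries, in which each captured transcript carries a unique molecular identifier (UMI). Barcodes were kept with no fewer than 500 UMIs and 300 genes and no more than 20% of UMIs from mitochondrial genes, and a kept barcode was a member if Flt1, Cldn5, Mecom, Pecam1, Adgrl4 and Slco1a4 together reached 30 counts per 10000 UMIs (CP10k) from at least 4 UMIs. The pericyte and smooth muscle genes Atp13a5, Pdgfrb, Rgs5, Notch3 and Abcc9 together had to stay under 15 CP10k. The gate took 289 of 50287 kept barcodes, or 0.575%. Members numbered 17, 47 and 81 in the Sevoflurane libraries and 66, 25 and 53 in the Control libraries.

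The Sevoflurane group was 3 libraries from elderly mice that breathed 2% sevoflurane, an inhaled general anaesthetic, for 6 h, and the Control group was 3 libraries from elderly mice that breathed air. The hippocampus was digested with collagenase, the cell suspension was frozen and thawed, and libraries were made with the 3′ chemistry of 10x Genomics. The labels name no strain, sex or exact age, and they state 6 mice without tying each library to an animal, so the tests speak of the spread among libraries, which may be technical. Both groups share the same digestion, freezing and thawing, per the labels.

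Brain endothelial cells line the vessels and form the blood-brain barrier through tight junctions, a low rate of vesicle transport and a set of transporters for glucose, amino acids, hormones and drugs. Their expression changes along the vessel tree: arteries, capillaries and veins each carry known genes, and arteries and larger veins are wrapped by smooth muscle where capillaries have pericytes. They also answer to blood flow, hormones, cytokines and oxygen with fast transcription factors such as Klf4 and with secreted matrix proteins and proteases.

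The labelled cell type was checked against markers the gate did not use. Of 20 further endothelial genes, 19 were abundant enough to be tested, and their summed level was 7127, 4930 and 6187 CPM (UMIs scaled to a total of 1000000) in the members of the Sevoflurane libraries and 6025, 7609 and 7262 CPM in those of the Control libraries, while the other barcodes of the same libraries held 103 to 177 CPM. Cdh5, the adhesion protein of endothelial junctions, averaged 191 CPM in members and 3.33 CPM in the other barcodes, and the angiopoietin receptor Tek averaged 439 and 13.5 CPM. No test belongs to this contrast, since the gate made it. Markers of other cells were present at lower levels: 12 neuron markers summed to 4141 to 6483 CPM in members, against 14194 to 15948 CPM in the other barcodes. The 6 genes of the gate are shown by library in the plot of members and gate genes.

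**Figure D1:**
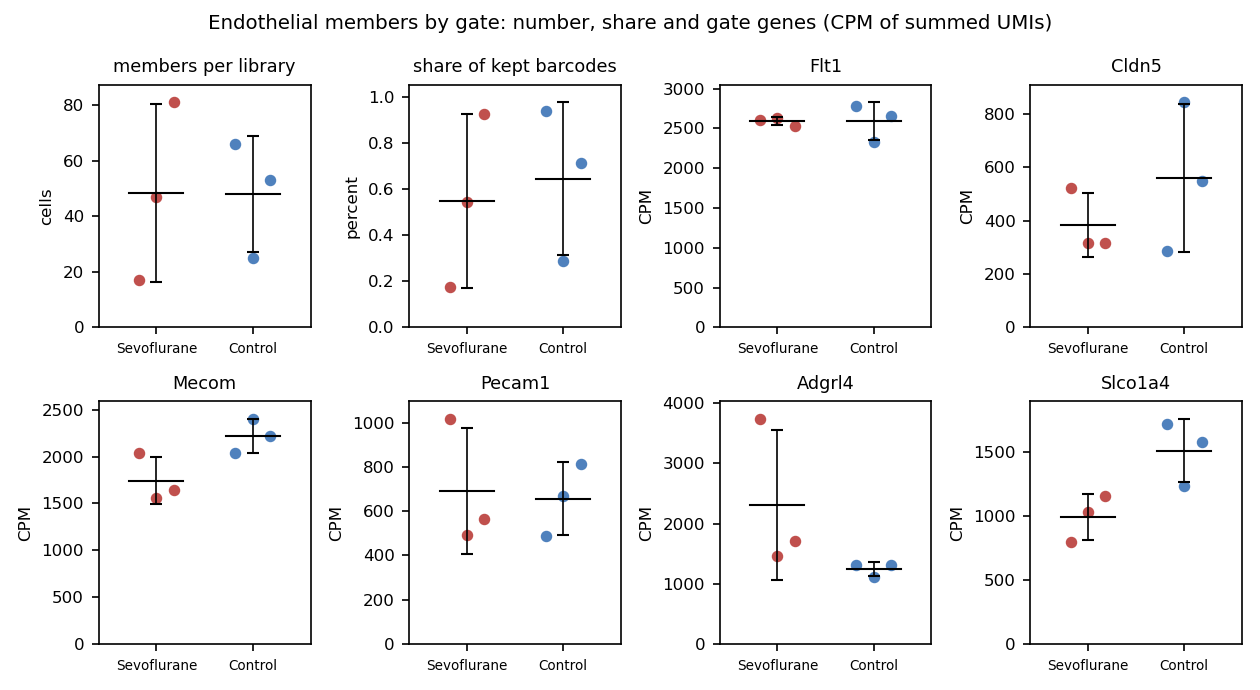
Number of members, their share of kept barcodes (percent) and the CPM of the 6 gate genes in members, for the 3 Sevoflurane libraries and the 3 Control libraries; points are libraries, lines and bars are mean and SD. Flt1 lies between 2327 and 2785 CPM in all 6 libraries, and Adgrl4 reaches 3739 CPM in Sevoflurane 1.

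Flt1, a receptor for vascular endothelial growth factor (VEGF), stood at 2612, 2631 and 2535 CPM in the Sevoflurane libraries, against 2785, 2327 and 2656 CPM in the Control libraries. Slco1a4, an organic anion transporter of the barrier, stood at 797, 1028 and 1155 CPM in the Sevoflurane libraries, against 1719, 1237 and 1574 CPM in the Control libraries. The groups overlapped for Flt1 and did not for Slco1a4. Adgrl4, an adhesion receptor of endothelium, was at 3739, 1464 and 1718 CPM with sevoflurane, against 1310, 1109 and 1314 CPM with air, again with no overlap. The tight junction protein Cldn5 ranged from 315 to 522 CPM in the Sevoflurane libraries and from 287 to 843 CPM in the Control libraries, Mecom from 1557 to 2034 and from 2034 to 2401 CPM, and the platelet endothelial adhesion molecule Pecam1 from 491 to 1017 and from 486 to 816 CPM. Among the 5 genes of the mural limit, Rgs5 was at 330, 352 and 521 CPM in the Sevoflurane libraries, against 442, 440 and 245 CPM in the Control libraries, and the other 4 stayed at or under 73.3 CPM. These values chose the members and were not tested. At the threshold, 14 members had a gate sum of 30 to 35 CP10k, 11 barcodes with enough UMIs fell just short at 25 to 30 CP10k, and 4 reached 30 CP10k from fewer than 4 UMIs.

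Library depth was 67471014, 59589143 and 70741809 UMIs for Sevoflurane 1 to 3, against 54426522, 68544056 and 55356640 for Control 1 to 3. Members were shallow: their median was 2149, 1979 and 2222 UMIs in the Sevoflurane libraries and 2265, 2486 and 2142 in the Control libraries, against 5549 to 6468 in the other barcodes. The counts summed over members came to 36374, 107933 and 257212 UMIs with sevoflurane and 180966, 109141 and 138549 with air, so Sevoflurane 1 is the least precise library. In it, a count of 0 allows a level of up to 82.5 CPM from counting error alone, against 11.7 to 27.8 CPM in the other libraries. A few barcodes weighed heavily: 6 members held more than 10000 UMIs each and 16.8% of all member UMIs. One of them gave 18.9% of the UMIs of Sevoflurane 3, and a pair gave 21.7% and 18.2% of those of Control 2. No member barcode occurred in more than 1 library. The inactive X chromosome RNA Xist stood at 990 CPM in the members of Sevoflurane 1, which had no UMI of the Y-linked Ddx3y, and at 0 to 9.16 CPM in the other 5 libraries, so the groups were not balanced for sex.

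The share of members was 0.549 ± 0.377% of kept barcodes in the Sevoflurane libraries and 0.646 ± 0.330% in the Control libraries (mean ± SD, n = 3 each). The difference of -0.0964 percentage points was smaller than the spread within either group (two-sided exact permutation p = 0.7, where 3 against 3 libraries cannot go below 0.1). Without Sevoflurane 1, the library with the lowest share, the difference was 0.0910, and without Control 1 it was 0.0494 percentage points. Fewer captured cells and less RNA per cell cannot be told apart in the sums that follow, which are relative to the total of the members.

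Counts were summed per library over the members, and edgeR's quasi-likelihood test was run on the sums of the 3 Sevoflurane and 3 Control libraries. Of 3230 genes tested, none passed a Benjamini-Hochberg adjusted p of 0.05 (0% called), and 359 genes (11.1%) had an unadjusted p under 0.05, of which 143 were higher with sevoflurane (4.43% of the genes) and 216 lower (6.69%). DESeq2 called 8 genes on the same sums. The groups did not overlap for 553 genes (17.1%), 262 higher (8.11%) and 291 lower (9.01%). The median log2 fold change of all genes was 0.01. A fit without the 6 members of more than 10000 UMIs, added after the data were seen, tested 3036 genes. Of these edgeR called 21, 5 higher and 16 lower. The genes described next are those with the smallest p among genes whose groups did not overlap, and the leading gene of each gene list; the first kind, and a few list members beyond the leading one, were chosen after their values were seen.

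Adamts9 had the largest positive change among them. The gene (GRCm38 chromosome 6, 92772699 to 92943492) encodes a secreted metalloprotease that cleaves proteoglycans of the extracellular matrix. It stood at 789, 235 and 304 CPM in the Sevoflurane libraries, from 29, 26 and 78 UMIs, against 22.2, 104 and 14.4 CPM in the Control libraries, from 4, 11 and 2 UMIs. The lowest library with sevoflurane thus lay above the highest with air, as the choice of these genes required. Members with at least 1 UMI were 8 of 17, 14 of 47 and 24 of 81 in the Sevoflurane libraries, against 4 of 66, 4 of 25 and 2 of 53 in the Control libraries, so the counts did not come from a single barcode. The log2 fold change was 3.19 (SE 0.60, edgeR adjusted p = 0.0613). Without the deepest members, an alternative added after the data were seen, it was 3.87 (edgeR adjusted p = 8.82e-04). Over 16 alternatives that kept to members it ran from 2.72 to 4.93 and passed the threshold in 7 of them. The edgeR or DESeq2 adjusted p ran from 1.58e-10 to 0.188. The smallest came from the fit without the filter on low counts, which also called Xist, found almost only in Sevoflurane 1. The next smallest edgeR adjusted p was 3.34e-05. In the gated barcodes over the mural limit, which are not members, the log2 fold change of Adamts9 was 2.63 (SE 0.36).

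Apold1, an endothelial protein of early stress responses, stood at 245, 81.4 and 226 CPM with sevoflurane, from 9, 9 and 58 UMIs, against 33.3, 18.9 and 14.4 CPM with air, from 6, 2 and 2 UMIs. These groups did not overlap either, as the choice required, and the log2 fold change was 2.90 (SE 0.51, edgeR adjusted p = 0.0613). Of the 58 UMIs in Sevoflurane 3, 20 lay in 1 barcode. The 250 bases before the start of each of these genes are shown because both hold the sequence TGACG or its reverse complement CGTCA, the core of the site that cyclic AMP-responsive factors bind. Capitals mark that match, at base -218 before the start in Adamts9 and at -52 in Apold1.
Adamts9 (GRCm38.p6, chr6:92943535-92943784, minus strand): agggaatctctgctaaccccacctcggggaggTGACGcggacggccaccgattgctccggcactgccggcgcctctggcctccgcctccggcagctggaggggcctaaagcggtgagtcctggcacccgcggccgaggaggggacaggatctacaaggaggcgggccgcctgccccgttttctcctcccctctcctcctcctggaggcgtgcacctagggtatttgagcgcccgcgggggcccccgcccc
Apold1 (GRCm38.p6, chr6:134981751-134982000, plus strand): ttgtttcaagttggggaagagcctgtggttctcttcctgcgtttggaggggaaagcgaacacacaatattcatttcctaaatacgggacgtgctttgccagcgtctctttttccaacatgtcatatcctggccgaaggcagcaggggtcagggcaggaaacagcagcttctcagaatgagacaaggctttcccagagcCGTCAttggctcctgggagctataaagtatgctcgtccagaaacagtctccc
Both sequences come from RefSeq. The match is a description of letters: on either strand, 17.8% of the 32851 promoter windows of the same length in the table hold it. Counted by gene, 32.8% of the 6974 genes tested over the wider set of gated barcodes described below hold it in at least 1 promoter.

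The next genes by p on the higher side had different known roles. Col4a2, a chain of the type IV collagen of the basement membrane, stood at 571, 443 and 549 CPM with sevoflurane, against 161, 265 and 129 CPM with air (log2 fold change 1.51, SE 0.31, edgeR adjusted p = 0.0754). Rgcc, a capillary gene that regulates the cell cycle, was at 598, 470 and 705 CPM in the Sevoflurane libraries, against 217, 199 and 287 CPM in the Control libraries (1.34, SE 0.28, edgeR adjusted p = 0.0757). Pdlim5, a scaffold of the actin cytoskeleton, was at 898, 687 and 682 CPM, against 295, 322 and 344 CPM with air (1.21, SE 0.26, edgeR adjusted p = 0.0757). For all 3 genes every library with sevoflurane lay above every library with air, as the choice required. Clic4, Ctla2a, Pglyrp1, Rapgef1 and Nes, which encodes an intermediate filament protein, had log2 fold changes of 1.11 to 1.77 with unadjusted p under 0.05. By the same choice their groups did not overlap. Dgki and Pex5l, genes of neurons, also stood higher, but 41 of the 59 Dgki UMIs and 87 of the 124 Pex5l UMIs of Sevoflurane 3 came from 1 barcode each.

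Among the genes at lower values with sevoflurane, Bmx came closest to the threshold. It encodes a tyrosine kinase known from arterial endothelium, and stood at 27.2, 9.05 and 11.7 CPM in the Sevoflurane libraries, from 1, 1 and 3 UMIs, against 106, 274 and 172 CPM in the Control libraries, from 19, 29 and 24 UMIs. A UMI of it was found in 1 of 17, 1 of 47 and 3 of 81 members in the Sevoflurane libraries. In the Control libraries it was found in 7 of 66, 5 of 25 and 11 of 53. The log2 fold change was -3.73 (SE 0.57, edgeR adjusted p = 0.0543), and over 14 alternatives that kept to members it lay between -4.41 and -3.36. The edgeR or DESeq2 adjusted p ran from 5.12e-08 to 0.135. The smallest again came from the fit without the filter on low counts, and the next smallest edgeR adjusted p was 6.04e-04. In the gated barcodes over the mural limit alone the log2 fold change of Bmx was -0.19 (SE 0.35, edgeR adjusted p = 0.869). Eln (chromosome 5, 134702593 to 134747323), the elastin of the arterial wall, was at 0, 118 and 179 CPM with sevoflurane, against 411, 1514 and 1385 CPM with air (-3.10, SE 0.56, edgeR adjusted p = 0.0613). In Control 2, 69 of the 160 Eln UMIs lay in 1 barcode, and in the barcodes over the mural limit alone Eln was at -0.54 (SE 0.40, edgeR adjusted p = 0.575). The transcription cofactor Mllt3 was at 109, 145 and 129 CPM with sevoflurane, against 361, 606 and 481 CPM with air, a log2 fold change of -1.86 (SE 0.31, edgeR adjusted p = 0.0590), and of -1.57 (SE 0.21) in the barcodes over the mural limit alone.

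Other genes on this side were the glypican Gpc6, the endocytosis gene Fchsd2, Cped1, the sphingosine phosphate phosphatase Sgpp2, Nhsl1, Dach1 and Rasgrf2, with log2 fold changes of -2.67 to -1.48. Gpc6 stood at 0, 54.3 and 62.3 CPM with sevoflurane, against 233, 246 and 230 CPM with air, and its log2 fold change of -2.15 was -0.49 (SE 0.21, edgeR adjusted p = 0.237) in the barcodes over the mural limit alone. Calcrl, the receptor of the dilator peptides CGRP and adrenomedullin, was at 54.4, 45.2 and 62.3 CPM in the Sevoflurane libraries, against 139, 227 and 294 CPM in the Control libraries (-1.94, SE 0.38, edgeR adjusted p = 0.0614). For Gpc6 and Calcrl, too, the groups did not overlap, as the choice required. The plot of leading genes shows these values library by library.

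**Figure D2:**
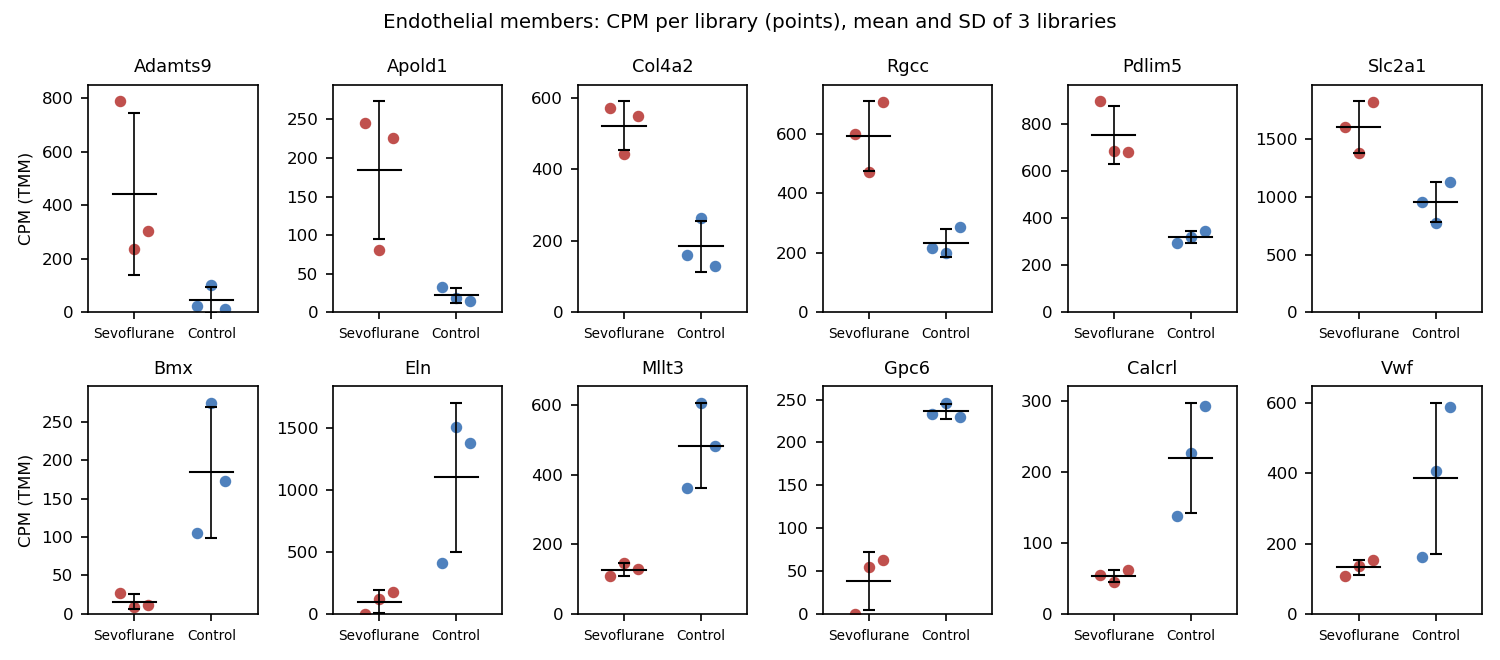
CPM (with TMM scaling factors, linear axis from 0) of 12 genes in the endothelial members of the 3 Sevoflurane and 3 Control libraries; points are libraries, lines and bars are mean and SD. The groups do not overlap for any of the 12, which was a condition of the choice for most of them. For Adamts9 the Sevoflurane libraries spread from 235 to 789 CPM.

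No gene of the arterial, venous and capillary lists was called in members. The arterial list summed to 680, 886 and 736 CPM in the Sevoflurane libraries, against 1223, 4666 and 2045 CPM in the Control libraries, and the venous list to 762, 959 and 1340 CPM, against 1067, 1694 and 3222 CPM. The arterial sums did not overlap and the venous sums did, and over all 755 barcodes that passed the endothelial genes the arterial sums overlapped too (537, 997 and 719 CPM with sevoflurane, against 952, 1462 and 1213 CPM with air). Of 15 arterial genes 4 were tested in members, with a median log2 fold change of -1.28, and of 13 venous genes 5, with a median of -1.38, beside 0.01 for all genes. A gene such as Bmx passed the filter on low counts through its Control libraries, which tilts medians over so few genes low. Over the 755 barcodes the medians were -0.75 for 13 tested arterial and -0.49 for 8 tested venous genes. In members the 10 tested capillary genes of 12 had a median of 0.16. Of these genes, 2 arterial and 3 venous ones lay lower without overlap, against the 9.01% of all genes given above. The arterial matrix protein Mgp was at 27.2, 434 and 199 CPM with sevoflurane, against 522, 2896 and 940 CPM with air, but 214 of its 306 UMIs in Control 2 came from 1 barcode. Of the venous genes, the clotting protein Vwf was at 109, 136 and 152 CPM with sevoflurane, against 161, 407 and 588 CPM with air (-1.44, SE 0.43, edgeR adjusted p = 0.222).

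The same was asked per cell, with every member thinned to 1000 UMIs so that depth is equal. Members below that depth were left out, 2, 1 and 3 in the Sevoflurane libraries and 0, 0 and 2 in the Control libraries. Members with a UMI of 13 arterial genes made up 26.7%, 17.4% and 25.6% in the Sevoflurane libraries, against 22.7%, 44.0% and 43.1% in the Control libraries. For 10 venous genes the shares were 13.3%, 30.4% and 32.1% with sevoflurane, against 21.2%, 44.0% and 64.7% with air, and for 4 capillary genes 46.7%, 39.1% and 32.1%, against 53.0%, 40.0% and 31.4%. Without thinning, the arterial shares were 41.2%, 29.8% and 35.8% with sevoflurane, against 42.4%, 72.0% and 58.5% with air. The thinned groups overlapped for all 3 kinds of gene, and the unthinned arterial groups did not. For the thinned shares an exact permutation test gave p = 0.3 for the arterial, 0.3 for the venous and 0.8 for the capillary genes, and 0.375, 0.375 and 0.8 when adjusted over 5 gene groups.

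The share of members with markers of smooth muscle and pericytes outside the gate did not overlap between the groups. A UMI of these 12 genes was found in 0%, 8.70% and 5.13% of thinned members in the Sevoflurane libraries, against 19.7%, 24.0% and 19.6% in the Control libraries, a difference of -16.5 percentage points (exact permutation p = 0.1, the smallest this design can give, and 0.375 adjusted over the 5 groups). The 0 of 15 thinned members of Sevoflurane 1 allows a share of up to 20%, which reaches the Control range. In the other barcodes, which serve as the background, the share was 3.43% to 4.82%. Unthinned, it was 0%, 12.8% and 17.3% of members with sevoflurane, against 31.8%, 40.0% and 34.0% with air. The summed level was 0, 63.3 and 475 CPM with sevoflurane, against 1362, 4694 and 280 CPM with air, where the groups overlapped. Much of it sat in single barcodes: 1 member held 72 of the 73 UMIs of the smooth muscle actin Acta2 in Control 1, another 195 of the 197 in Control 2, and another 21 of the 23 in Sevoflurane 3.

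**Figure D3:**
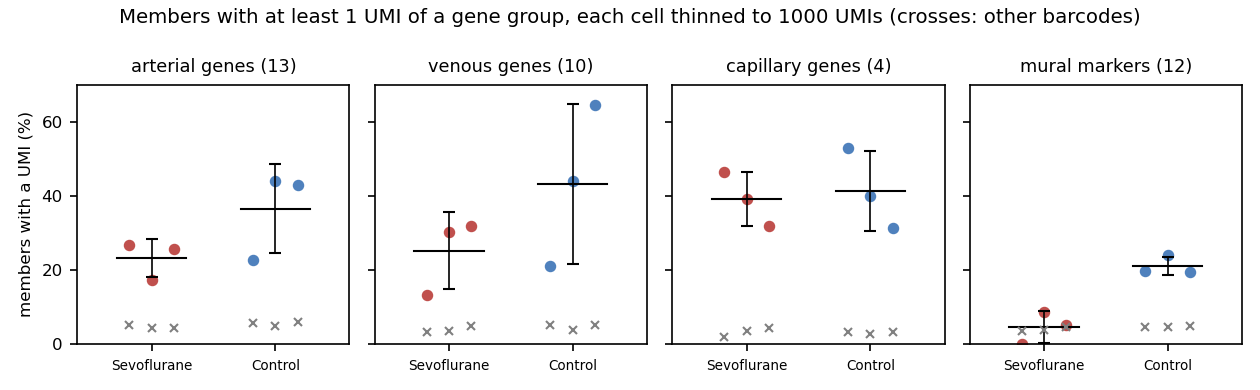
Percent of endothelial members with at least 1 UMI of a gene group after thinning each cell to 1000 UMIs, by library, with mean and SD; crosses are the other barcodes of the same libraries. Arterial, venous and capillary shares overlap between Sevoflurane and Control, and the mural marker shares (0% to 8.70%, against 19.6% to 24.0%) do not.

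The comparison was repeated without these carriers, as alternatives added after the data were seen. Without members carrying a mural marker, which leaves 17, 41 and 67 members with sevoflurane and 45, 15 and 35 with air, 6 of 2109 genes were called, with Mllt3, Dach1, Gpc5 and Ttr lower and Adamts9 and Pdlim5 higher. Without members carrying an arterial or venous gene, 9, 23 and 31 members with sevoflurane and 28, 5 and 7 with air were left, and 3 of 447 genes were called, among them Clic4 at a higher and Tmtc2 at a lower level. With fewer cells left, fewer genes passed the filter on low counts in these sums.

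Of 32 barrier transporters 23 were tested and none called (edgeR), 2 lay higher and 4 lower without overlap (8.11% and 9.01% of all genes did), and the median log2 fold change was -0.14. Slc2a1, the glucose transporter of the barrier, stood at 1605, 1375 and 1820 CPM in the Sevoflurane libraries, against 956, 776 and 1127 CPM in the Control libraries (0.75, SE 0.25, edgeR adjusted p = 0.310). The drug pump Abcb1a was at 381, 416 and 394 CPM with sevoflurane, against 617, 738 and 718 CPM with air (-0.79, SE 0.25, edgeR adjusted p = 0.268). Abcb1a was named after its values were seen, and for both genes the groups did not overlap. The zinc importer Slc39a10, the leading gene of the list, had -1.03 (SE 0.32), and the lipid transporter Mfsd2a, which keeps vesicle transport low, 0.79 (SE 0.35). The 14 tested junction genes of 21 had a median of -0.04, led by the catenin Ctnna1 at 0.84 (SE 0.30), and the 10 tested genes of caveolae and vesicle transport a median of -0.21, led by Cavin1 at -1.45 (SE 0.59). For the junction scaffold Tjp1, named after its values were seen, the groups overlapped.

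Signalling lists gave no called gene in members. Nrp1, a coreceptor of VEGF, stood at 54.4, 81.4 and 144 CPM with sevoflurane, against 272, 218 and 445 CPM with air (-1.51, SE 0.37, edgeR adjusted p = 0.115). Reck, which with Gpr124 passes the Wnt7 signal to brain endothelium, was at 27.2, 81.4 and 58.4 CPM with sevoflurane, against 145, 237 and 172 CPM with air (-1.53, SE 0.36, edgeR adjusted p = 0.107). Both pairs of groups were apart. In the Wnt list, 1 of 16 tested genes lay higher and 7 lower without overlap, beside 8.11% and 9.01% of all genes, with a median log2 fold change of -0.55. The VEGF list had a median of 0.09 over 14 genes, the Notch list 0.39 over 7, led by Maml2 at -0.75 (SE 0.28), and the BMP and TGF-beta list -0.25 over 13, led by the coreceptor Tgfbr3 at -0.85 (SE 0.35). Only 2 of 50 interferon-stimulated genes were abundant enough to be tested, with Ifitm3 at -1.42 (SE 0.48), and 5 of 16 genes of MHC class I presentation, with a median of -0.42.

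Lists of stress, hormone and matrix genes behaved as follows in members. Of 14 tested glucocorticoid-responsive genes, 5 had an unadjusted p under 0.05 at higher and 1 at lower values, beside 4.43% and 6.69% of all genes, and the median was 0.30. Mt1, a metallothionein, had 1.00 and the cell cycle inhibitor Cdkn1a 1.30 (SE 0.47), from 136, 81.4 and 230 CPM with sevoflurane, against 106, 28.4 and 50.2 CPM with air, where the groups overlapped. The 9 tested flow-responsive and vasomotor genes had a median of 0.18, and the 6 tested immediate-early genes 0.18 as well. Klf4, a transcription factor induced by shear, was at 435, 253 and 382 CPM with sevoflurane, against 88.9, 293 and 71.8 CPM with air (1.28, SE 0.45, edgeR adjusted p = 0.318), and Control 2 overlapped. Dbp, an output gene of the circadian clock, was at 27.2, 54.3 and 50.7 CPM, against 172, 161 and 100.5 CPM with air (-1.55, SE 0.38, edgeR adjusted p = 0.115). Laminin Lama4 led the basal lamina list at -2.23 (SE 0.48). The lists of cholesterol synthesis, the unfolded protein response and heat shock chaperones had medians of -0.19, 0.19 and 0.18.

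The difference between members and the rest of each library was tested as an interaction: the sevoflurane effect in members against that in all other kept barcodes of the same libraries, with the library as a block. Of 18421 genes, 14 were called by edgeR (0.076%), 2 of them predicted genes, and 916 genes (4.97%) had an unadjusted p under 0.05. Adamts9 differed by 3.16 on the log2 scale (SE 0.41, edgeR adjusted p = 1.62e-10): in the other barcodes it averaged 38.8 ± 12.6 CPM with sevoflurane and 38.9 ± 7.61 CPM with air. Eln differed by -2.75 (SE 0.34, edgeR adjusted p = 1.01e-11), against 8.44 ± 1.26 and 10.0 ± 1.34 CPM in the other barcodes. For Adamts9 and Eln this SE was below that of the change in members alone (0.60 and 0.56). The interaction p-values therefore do not measure each gene's own spread among the libraries. These 2 genes were called in all 6 fits that left out 1 library. Col4a2 differed by 1.56 (SE 0.32, edgeR adjusted p = 0.00619) and was called in 3 of the 6, and Pdlim5 (1.26), Rapgef1 (1.48), Calcrl (-1.88) and Gpc6 (-1.85) were called in none. The other barcodes include the 466 gated barcodes over the mural limit. In those alone the log2 fold change was 2.63 for Adamts9, 1.16 for Col4a2, 1.24 for Pdlim5 and 1.02 for Rapgef1. It was -1.10 for Calcrl, -0.54 for Eln and -0.49 for Gpc6. These differences are therefore not shown to be particular to members among gated barcodes.

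The remaining named genes of the interaction were Airn, Cdh13, Rai14, Kcnh7 and Igfbp3. Rai14, an actin-bundling protein, stood at 571, 452 and 343 CPM in members with sevoflurane, against 200.1, 180 and 273 CPM with air (difference 1.42, SE 0.32). The potassium channel gene Kcnh7 rested on 1 barcode with 123 of the 156 UMIs of Sevoflurane 3, and without members of more than 10000 UMIs its difference was 0.92 with an edgeR adjusted p of 1. The adhesion molecule Cdh13 went likewise to -0.68 with an edgeR adjusted p of 1. Igfbp3 was found with 0, 1 and 0 UMIs with sevoflurane, against 11, 8 and 17 with air. Airn is transcribed opposite to Igf2r, and reads of such pairs cannot be told apart where the strand setting of the counting is not given. Against the 213 mural cells, chosen by the mural genes at 15 CP10k or more and a low endothelial sum, no gene of 3581 was called for a different effect (0%), 212 (5.92%) had an unadjusted p under 0.05, and the smallest edgeR adjusted p was 0.359.

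**Figure D4:**
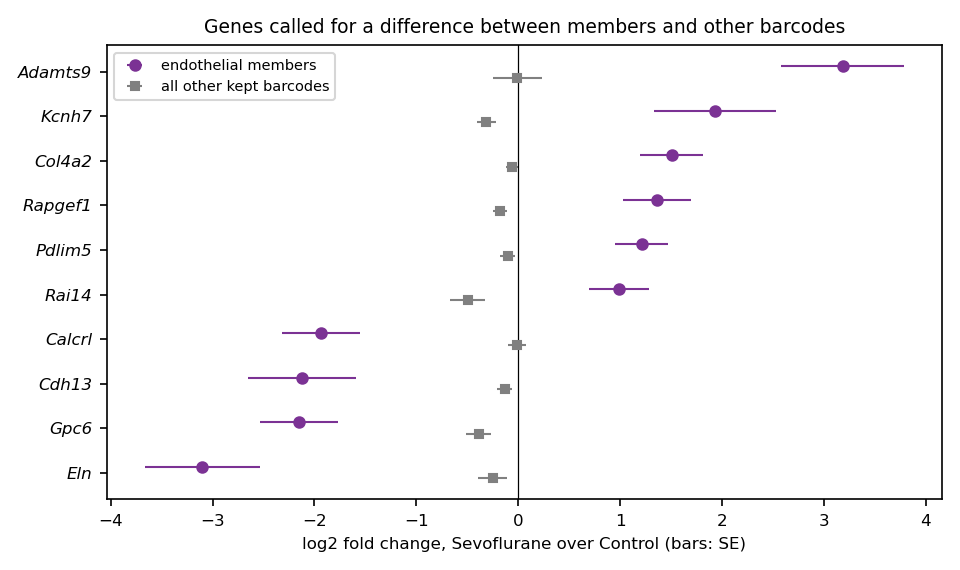
Log2 fold change, Sevoflurane over Control, with SE, in endothelial members (circles) and in all other kept barcodes (squares) for the 10 named genes that were tested in members and called for a difference between both. Adamts9 stands at 3.19 in members and at -0.01 in the other barcodes, and Eln at -3.10 and -0.25.

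The mural limit of the gate left out 466 of the 755 barcodes that passed the endothelial genes, or 61.7%, and 303 of them exceeded it through Rgs5 alone. They held a median of 4427, 3500 and 3992 UMIs in the Sevoflurane libraries and 4181, 5114 and 5368 in the Control libraries, where the mural cells described above had medians of 1674 to 2112. In them Rgs5 averaged 3677 CPM, against 388 CPM in members, and the pericyte genes Vtn and Atp13a5 averaged 826 and 551 CPM, against 712 and 1877 CPM in mural cells. Whether these barcodes hold an endothelial cell with a pericyte, a vessel fragment or an endothelial cell with free RNA was not tested, so the calls that follow may not all be of endothelial cells. The comparison was repeated over all 755 barcodes, an alternative added after the data were seen, which gave 266223, 527654 and 859462 UMIs with sevoflurane and 811310, 566390 and 507833 with air. Of 8799 genes, edgeR called 286 (3.25%), 158 higher (1.8%) and 128 lower (1.45%). The barcodes over the mural limit alone gave 335 calls among 7727 genes (4.34%), 183 higher (2.37%) and 152 lower (1.97%). The following values are those of the 755 barcodes, which share their libraries with the members and contain them.

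Adamts9, Adamts1 and Apold1 were among the genes with the smallest p on the higher side. Adamts9 rose to 452, 159 and 192 CPM with sevoflurane, against 22.2, 54.1 and 31.0 CPM with air (2.84, SE 0.37, edgeR adjusted p = 7.54e-04), and its relative Adamts1 to 210, 163 and 126 CPM, against 18.5, 40.2 and 34.9 CPM (2.41, SE 0.28). In the list of ADAMTS and matrix protease genes, these and the inhibitor Timp3 rose, Reck fell, and the 10 tested genes had a median of -0.09. Apold1 rose to 405, 272 and 291 CPM, against 61.6, 89.0 and 71.7 CPM with air (2.11, SE 0.21). Of 17 tested immediate-early genes, Maff, Nr4a1, Klf4, Jund and Dusp1 were called higher and none lower (median 0.87, beside 0.00 for all genes, of which 1.8% were called higher and 1.45% lower). Genes known to respond to tissue dissociation, some of them also in that list, summed to 871, 481 and 489 CPM with sevoflurane, against 470, 480 and 410 CPM with air, and their part was not tested. None of the 7 tested dissociation genes was called by edgeR. Maff, a small bZIP factor, rose by 2.51, Nr4a1 by 1.74 and Klf4 by 1.64 on the log2 scale. Jund rose by 1.06, but in members alone it was at -0.07 (SE 0.44). The urokinase receptor Plaur rose by 2.67, the TWEAK receptor Tnfrsf12a by 2.81, the matricellular protein Ccn1 by 3.26 and the ephrin receptor Epha2 by 1.75. The groups were apart for each of these genes, which the choice of those with the largest changes required. All but Reck, Ccn1, Epha2, Dusp1 and Jund were called in all 6 fits that left out 1 library.

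Promoters of Adamts1 and Maff are shown because they hold the same letters as those of Adamts9 and Apold1, again with TGACG or CGTCA in capitals. Of promoters not shown, the window of Slc2a1 and that of Maff from base 79346371 held 0 matches. The window of Klf4 and that of Maff from base 79348152 held 1 each. In Maff the match forms the full palindrome TGACGTCA 29 bases before 1 of its 3 annotated starts.
Adamts1 (GRCm38.p6, chr16:85803114-85803363, minus strand): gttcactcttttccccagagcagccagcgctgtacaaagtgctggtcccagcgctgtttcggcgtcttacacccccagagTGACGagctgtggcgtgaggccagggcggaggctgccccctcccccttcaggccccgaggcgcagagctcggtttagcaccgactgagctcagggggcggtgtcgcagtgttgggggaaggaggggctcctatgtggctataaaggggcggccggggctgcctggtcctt
Maff (GRCm38.p6, chr15:79347270-79347519, plus strand): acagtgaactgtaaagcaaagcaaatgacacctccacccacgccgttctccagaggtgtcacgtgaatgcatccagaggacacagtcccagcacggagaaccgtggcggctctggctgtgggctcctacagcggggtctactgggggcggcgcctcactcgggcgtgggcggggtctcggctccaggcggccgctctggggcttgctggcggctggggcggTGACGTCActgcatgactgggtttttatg
TGACG occurred in at least 1 promoter of 46 of the 130 higher genes that the table holds (35.4%), 31 of 99 lower genes (31.3%) and 32.8% of 6974 tested genes. TGACGTCA, which contains TGACG, occurred in 5.38%, 4.04% and 3.21%, and TGANTCA, the site of AP-1 factors, in 10.8%, 2.02% and 5.22%. The shares of TGACG among called genes were near that of all tested genes. Of the 12 largest higher genes 11 had an entry and 7 held it, and of the 12 largest lower genes 6 had an entry and 1 held it.

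Part of the flow and hormone lists was called in the 755 barcodes, against 1.8% of all genes called higher and 1.45% lower. Of 11 tested flow-responsive and vasomotor genes, Edn1, Klf4, Piezo1 and Klf6 rose and Calcrl fell (median 0.83). Edn1, the constrictor peptide endothelin, rose to 218, 125 and 102 CPM with sevoflurane, against 34.5, 38.4 and 54.2 CPM with air (1.73, SE 0.28, edgeR adjusted p = 0.00287). The stretch-gated channel Piezo1 rose by 1.11. Among 23 glucocorticoid-responsive genes Cdkn1a, Mt2, Sgk1, Mt1 and Dusp1 rose and the mineralocorticoid receptor Nr3c2 fell (median 0.36). Klf6 and Nr3c2 were called in 1 of the 6 fits that left out 1 library. Cdkn1a was at 541, 333 and 385 CPM with sevoflurane, against 136, 103 and 149 CPM with air (1.68, SE 0.21). Both chains of type IV collagen, Col4a1 and Col4a2, and the protease inhibitor Timp3 rose by 1.03, 1.25 and 1.01. In members alone they were at 0.79 (SE 0.35), 1.51 (SE 0.31) and 0.13 (SE 0.36), so members did not show the rise of Timp3. Mt1 and Mt2 are close relatives, so reads they share make either value uncertain.

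**Figure D5:**
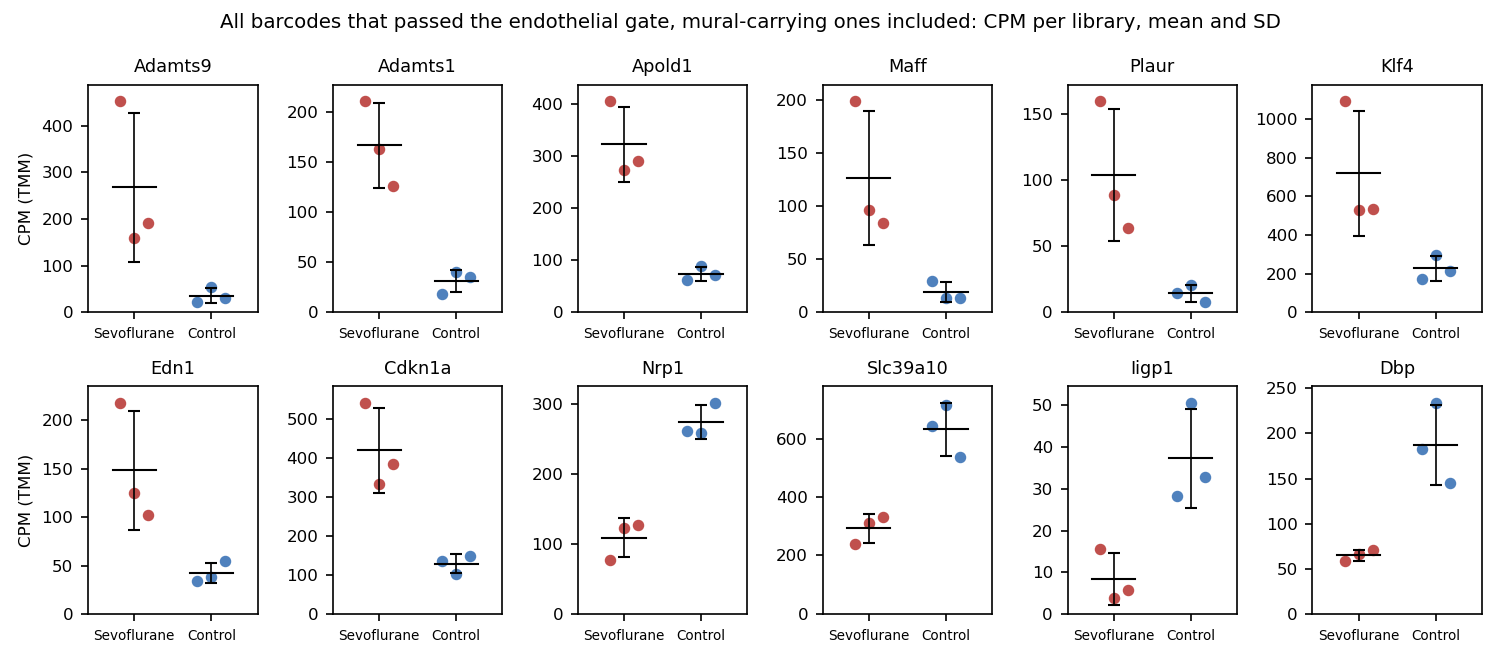
CPM (with TMM scaling factors, linear axis from 0) of 12 genes called over the 755 barcodes that passed the endothelial genes, by library, with mean and SD. The 8 genes from Adamts9 to Cdkn1a are higher and Nrp1, Slc39a10, Iigp1 and Dbp lower in all 3 Sevoflurane libraries, and Sevoflurane 1 is the highest library for the 8 higher genes.

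Transporters and signalling genes went both ways. Of 31 tested barrier transporters Slc2a1 rose, to 3244, 2628 and 2822 CPM with sevoflurane, against 1623, 1706 and 1703 CPM with air (0.79, SE 0.16, edgeR adjusted p = 0.0142), and Slc39a10, Abcc4 and Abcg2 fell by 0.70 to 1.09 on the log2 scale. Nrp1 fell to 77.9, 123 and 127 CPM with sevoflurane, against 262, 258 and 302 CPM with air (-1.26, SE 0.19, edgeR adjusted p = 0.00194). The Notch ligands Dll4 and Jag1 fell by 1.74 and 0.91, and Reck, Znrf3 and Tnfrsf19 of the Wnt list by 0.71 to 0.91. No member of these lists was called higher, and the medians were -0.15 over 15 Notch and -0.21 over 21 Wnt genes. In the BMP and TGF-beta list the inhibitors Smad6 and Skil rose and Bmp6 fell. In members alone Smad6 was at 0.47 (SE 0.42) and Skil at 0.26 (SE 0.42), and Bmp6 was not tested. Of 37 tested interferon-stimulated genes Iigp1, Ifit1 and Sp100 were called lower and none higher (median -0.68), beside 1.45% of all genes called lower and 1.8% higher. Dbp fell by 1.49 and Per3 by 0.98 among 16 clock genes. The adhesion molecule Vcam1 fell by 1.91, and no gene of the MHC class I list was called. Several of these calls depended on single libraries. Of the 6 fits that left out 1 library, Jag1 was called in 0, Tnfrsf19 in 1, Znrf3, Abcc4, Abcg2, Skil and Per3 in 2, Dll4, Reck, Bmp6 and Vcam1 in 3, and Slc2a1 and Ifit1 in 4. Slc39a10, Nrp1, Iigp1 and Dbp were called in all 6.

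Signs of other cells moved with some of these calls. The choroid plexus transcript Ttr stood at 0, 0 and 3.89 CPM in the members of the Sevoflurane libraries, against 431, 73.3 and 1205 CPM in those of the Control libraries. In the other barcodes it stood at 2.27 to 2.68 CPM with sevoflurane and at 70.2 to 526 CPM with air. The 10 choroid plexus markers summed to 97.7, 92.9 and 87.3 CPM over the 755 barcodes with sevoflurane, against 386, 180 and 746 CPM with air. Over the same barcodes astrocyte markers summed to 1442, 1713 and 1438 CPM with sevoflurane, against 2081, 1995 and 2139 CPM with air, and fibroblast markers to 67.6, 104 and 111 CPM, against 166, 270 and 321 CPM, so that both lists separated the groups. Acta2 of smooth muscle fell by 2.85 over the 755 barcodes. Blood markers summed to 2802, 1493 and 1177 CPM in members with sevoflurane, against 6314, 861 and 359 CPM with air. The part of these in the other differences was not tested. Without Sevoflurane 1, 193 genes were called over the 755 barcodes, 171 of them among the 286, and without Control 1 108, of which 98 were shared.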

How the data were processed

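Droplet single-cell RNA was sequenced from 3 Sevoflurane and 3 Control hippocampus libraries. The deposited values are raw UMI counts per gene and barcode, which per the file headers the authors made with version 6.1.1 of Cell Ranger. The submitters' processing notes also list Seurat and CASAVA 1.8. For the authors' genome build, annotation and strand setting the entry is not given in the sources used here. Gene positions are those of GENCODE M21 on GRCm38, matched by gene ID. Barcodes had been called before deposit. They were not corrected for free RNA and no doublet caller was run. The mural limit removed endothelial barcodes with 15 CP10k or more of the mural genes, and members could hold fewer such transcripts. Members with no UMI of these genes made up 52% to 70.6% per library.

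Members were chosen by the gate in the report, with the gene lists and the gate chosen when earlier results of these data were known. Counts were summed per library over members, because cells are not replicates, and tested with edgeR 4.0.16 in R 4.3.3 (glmQLFTest, TMM, filterByExpr, Benjamini-Hochberg adjustment over all genes tested, threshold 0.05). Log2 fold changes are Sevoflurane over Control, with the SE computed as the fold over the root of F. Levels of tested genes are CPM with TMM factors, and those of the gate genes, of Ttr and Xist and of the list sums over the 755 barcodes are plain CPM. A sum over members of 36374 to 257212 UMIs limits the precision, and floors (3 counts) cover counting error only. Interactions used the library as a block. Shares were compared with exact permutation tests. Thinning drew 1000 UMIs per cell, with up to 1500 other barcodes per library as background, for list genes whose mean in other barcodes was under 15 CPM. Scripts were tested on simulated data.

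Named genes are the called genes of each of 41 lists, at most 8 a list, or the gene with the largest change where none is called, and the 12 called genes with the largest change in each direction with at least 20 CPM and no overlap; genes with the smallest p in members were added after their values were seen. Predicted genes were counted, not named. Some genes that the rule selects are not reported here. Same-numbered libraries did not deviate together (correlations 0.01, -0.12 and -0.01), so no pairing was used. Alternatives were leaving out each library, DESeq2 1.42.0, RLE scaling, no filter, a gate sum of 60 CP10k from 8 UMIs, no UMI of the mural genes, leaving out the 25% of members with most markers of other cells, removing a trend with gene span, a replicate block, and those added after the data were seen. Promoters (250 bases) are from the RefSeq table on GRCm38.p6.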

Additional observations from a re-analysis of the deposited data

Results flagged for a closer look

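The differences between the sevoflurane effect in endothelial members and that in all other kept barcodes (log2, edgeR interaction with the library as a block, adjusted p under 0.05) stand out for 12 named genes. They were positive for Adamts9 (3.16), Kcnh7 (1.94), Col4a2 (1.56), Rapgef1 (1.48), Rai14 (1.42) and Pdlim5 (1.26). They were negative for Igfbp3 (-4.86), Eln (-2.75), Airn (-2.48), Cdh13 (-1.92), Calcrl (-1.88) and Gpc6 (-1.85). The p-values behind these calls do not measure each gene's own spread among the libraries. The other barcodes include the 466 gated barcodes over the mural limit, so these differences do not set members apart from the most similar cells. Without members of more than 10000 UMIs, 10 genes were called, 6 of them among the reported 14, and Kcnh7, Calcrl, Cdh13, Gpc6, Igfbp3 and Rai14 no longer passed. Igfbp3 rests on 1 UMI in the Sevoflurane libraries, so its fitted size depends on the prior count. Groups of 3 libraries are too small for a test of single outlying libraries.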

How the results depend on the processing

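No gene was called in members, and this count was 0 as well with the replicate block, with RLE scaling and with the stricter gate. It was 8 with DESeq2, 89 without the filter on low counts, 12 without members holding a mural UMI, 11 without the 25% richest in markers of other cells and 3 with the span trend removed. The calls without the filter included Xist, found almost only in Sevoflurane 1. Alternatives added after the data were seen gave 286 with the mural-carrying barcodes, 335 with those alone, 6 without carriers of mural markers, 3 without carriers of arterial or venous genes and 21 without members of more than 10000 UMIs. Leaving out 1 library gave 0 to 13 calls (13 without Control 1, 12 without Control 2, 1 without Sevoflurane 2). Genes of the fixed lists among these calls numbered 2, 32, 4, 3, 1, 57, 62, 2, 0 and 4 in the same order of settings, and 0 to 6 with 1 library left out. Over the 755 barcodes the count of 286 was 173 with DESeq2, 181 with the replicate block, 303 with the span trend removed and 108 to 287 with 1 library left out (108 without Control 1, 112 without Control 3, 139 without Sevoflurane 2); 32 of 71 named genes were called in all 6 of these fits. The interaction against other barcodes gave 5 to 12 calls with 1 library left out, against 14, 24 when only genes tested in members were adjusted for, and 10 without the deep members; against mural cells it gave 0 to 5. The difference in share ran from -0.286 to 0.0910 percentage points with 1 library left out, and was positive without Sevoflurane 1 (0.0910) and without Control 1 (0.0494).

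Of 932 values of 56 named genes of members, 13 changed sign. Hmgcs1 (-0.20) ran from -0.68 to 0.13 with 1 library left out (0.13 without Sevoflurane 3) and was 0.016 with the replicate block, 0.73 with mural-carrying barcodes and 0.99 in those alone; Jun (-0.52) was 0.60 and 0.75 there. In the mural-carrying barcodes alone Camk2a was -0.17, Mbp -0.12, Dgki -0.21 and Pex5l -0.69, against 1.30 and 1.28 in members. Camk2a was -0.11 without arterial or venous carriers, and Mbp -0.069 without mural marker carriers; Hba-a2 ran from -2.13 to 1.47 with 1 library left out (1.47 without Control 1). In Sevoflurane 1 a count of 0 allows up to 82.5 CPM, so lower levels could not be measured there. Adding the mural-carrying barcodes, dropping the filter and leaving out the 6 deep members moved the count of calls in members most; the cause was not tested.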
